A study of Mus musculus with 9 samples.

Results

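Cell cycle genes that lie against, or partly inside, a gene on the other DNA strand were followed in mouse liver, together with those neighbours. The 9 genes were Tk1 with Afmid, Ccna2 with Exosc9, Mcm7 with Ap4m1, Aurka with Cstf1, and Ccnd1, out of 24419 gene symbols counted. They were picked by symbol. The cell cycle genes and, through them, their 4 neighbours were picked with counts in CTRL, MODEL1 and MODEL2 known, so the differences of all 9 between groups are given as a description without a test.

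RNA came from whole liver of 9 male FVB mice, 3 per group, all on a normal diet. The CTRL group was aged 13, 13 and 17 weeks. The mice of MODEL1, all 18 weeks old, carried plasmid-encoded NFE2L2 with the G31A change and CTNNB1 with the T41A change. Those of MODEL2, aged 19, 20 and 22 weeks, carried NFE2L2 T80K with the same CTNNB1 T41A. NFE2L2 encodes the stress-response factor NRF2 and CTNNB1 encodes beta-catenin. Both models received 20 µg of each plasmid in 2 ml of saline through the tail vein under hydrodynamic pressure, together with Sleeping Beauty transposase, which inserts the cargo into the genome of the hepatocytes it reaches. By the design text both models had liver tumours, with those of MODEL1 appearing sooner. The labels record no injection for CTRL, and the design text speaks of a control arm with wild-type NFE2L2 and T41A beta-catenin; which of these the sequenced CTRL mice were is not given in the sources used here. Every MODEL1 and MODEL2 mouse was older than every CTRL mouse, so age and group can largely not be told apart. The liver samples were not separated into tumour and surrounding tissue in the labels.

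Adult hepatocytes rarely divide, and most genes of the cell cycle are nearly silent in resting liver. When a cell enters the cycle, Ccnd1 (cyclin D1) and its kinase partners release E2F factors, which switch on genes for DNA synthesis such as Tk1 (thymidine kinase, which salvages thymidine for DNA) and Mcm7 (a subunit of the MCM helicase that opens DNA at origins). Ccna2 (cyclin A2) then drives S phase and entry into mitosis, and Aurka (Aurora kinase A) builds the mitotic spindle. Their neighbours serve other ends. Afmid is a formamidase of tryptophan breakdown, Exosc9 a subunit of the RNA exosome that trims and degrades RNA, Ap4m1 a subunit of the AP-4 adaptor of vesicle sorting, and Cstf1 a subunit of the factor that sets the 3′ ends of messenger RNAs.

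The arrangement of the genes matters for every value below. The sources used here do not state whether the libraries kept strand, or whether and in which direction the counting used it. Without this, a read in a shared stretch, or a transcript running past it, cannot be given to one gene with certainty. The counts under a symbol may come partly or wholly from what faces it, which was not tested. On mm10, with GENCODE M21 gene models, Tk1 occupies chr11:117815526-117826092 on the minus strand and Afmid chr11:117825924-117839908 on the plus strand. They point away from each other and share 83 exon bases, 1.60% of the exon bases of Tk1 and 2.35% of those of Afmid. Tk1 also lies within the body of the predicted gene Gm20708 on the plus strand. Ccna2 (chr3:36564865-36572150, minus) and Exosc9 (chr3:36552606-36565727, plus) meet tail to tail and share 510 exon bases, 12.5% of Ccna2 and 10.8% of Exosc9. Mcm7 (chr5:138164583-138172422, minus) and Ap4m1 (chr5:138172002-138180429, plus) share 321 exon bases at their starts. Mcm7 shares a further 64 with Cops6, a COP9 signalosome subunit, for 8.70% in all, and Ap4m1 a further 1185 with Taf6, a subunit of the general transcription factor TFIID, for 28.1% in all. Aurka (chr2:172356190-172370535, minus) and Cstf1 (chr2:172370681-172382448, plus) share no exon base and stand 145 bases apart. Ccnd1 (chr7:144929931-144939925, minus) shares 1100 exon bases, 23.4% of its own, with Oraov1 on the plus strand. Exons facing an exon on the opposite strand were common in the table as a whole. Of 23965 placed symbols, 5793 (24.2%) had at least 1 such base, and those symbols held 79.0% of the placed counts.

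**Figure D1:**
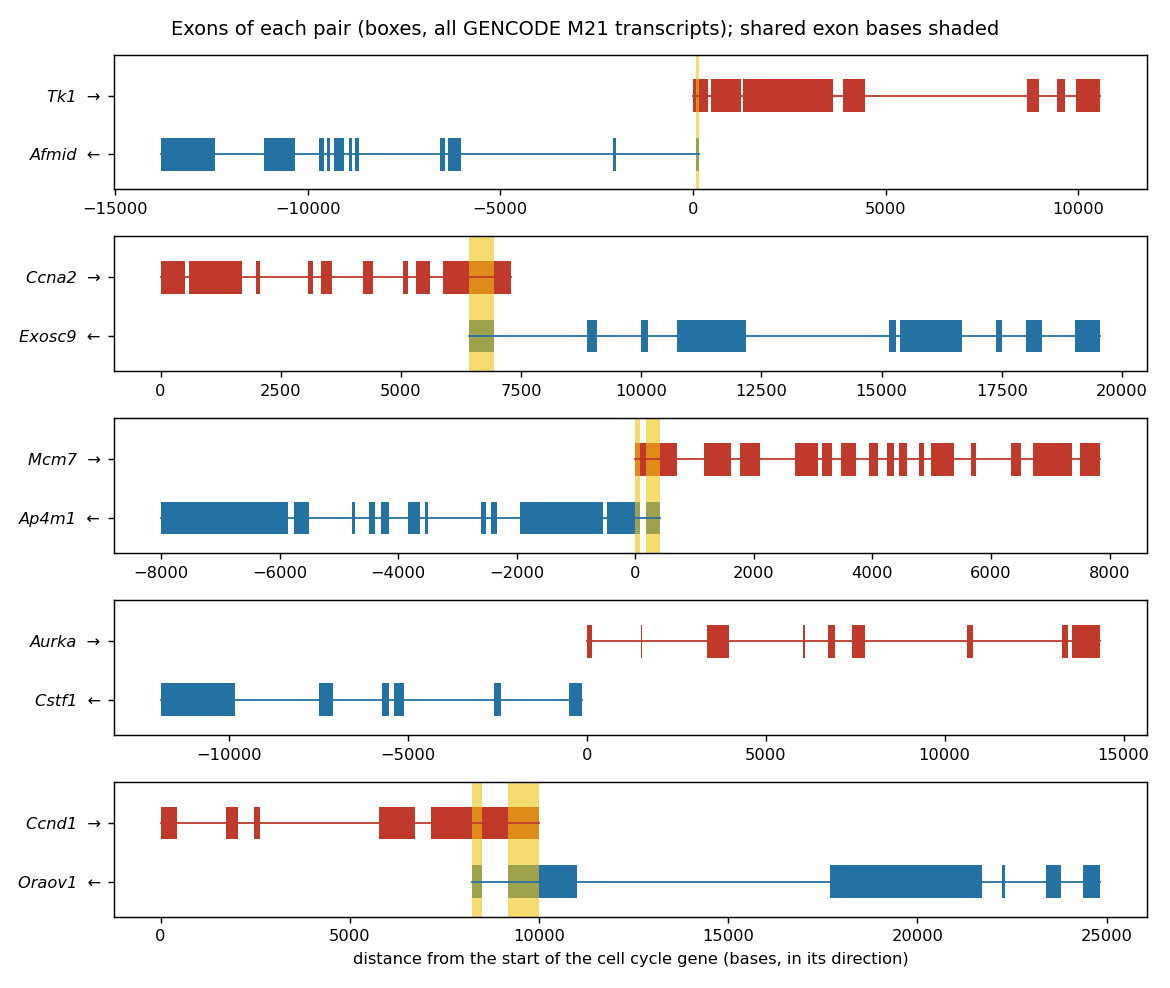
Exons (boxes) of the 5 pairs drawn to scale, against distance in bases from the start of the cell cycle gene, in its direction; arrows give the direction of each gene and shading the shared exon bases. Ccna2 and Exosc9 overlap in their last exons over 510 bases, Tk1 and Afmid at their starts over 83 bases, and Aurka and Cstf1 do not touch.

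The start regions of 3 pairs are shown because each holds, or nearly holds, the starts of both genes. Each window runs 5′ to 3′ on the strand of the named gene, from 250 bases before to 50 bases after its RefSeq start, on GRCm38.p6. Capitals mark every match, on either strand, to TTTCCCGC or TTTGGCGC (written forms of the E2F site), TTTGAA (the core of the CHR element of mitotic genes) or CCAAT (the box bound by NF-Y). The windows are Tk1 at chr11:117825965-117826264 (minus), Afmid at chr11:117825669-117825968 (plus), Mcm7 at chr5:138171834-138172133 (minus) and Aurka at chr2:172370521-172370820 (minus).
Tk1: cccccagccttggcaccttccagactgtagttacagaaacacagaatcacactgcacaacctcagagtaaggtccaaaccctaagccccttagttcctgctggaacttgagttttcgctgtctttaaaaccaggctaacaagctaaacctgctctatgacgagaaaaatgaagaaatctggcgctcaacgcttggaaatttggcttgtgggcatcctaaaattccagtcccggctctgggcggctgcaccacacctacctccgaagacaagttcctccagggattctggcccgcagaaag
Afmid: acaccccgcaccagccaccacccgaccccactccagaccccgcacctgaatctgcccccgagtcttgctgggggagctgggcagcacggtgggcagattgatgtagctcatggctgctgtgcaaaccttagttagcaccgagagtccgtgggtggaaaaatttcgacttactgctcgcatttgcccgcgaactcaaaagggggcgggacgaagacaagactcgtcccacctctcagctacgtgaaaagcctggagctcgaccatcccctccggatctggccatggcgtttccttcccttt
Mcm7: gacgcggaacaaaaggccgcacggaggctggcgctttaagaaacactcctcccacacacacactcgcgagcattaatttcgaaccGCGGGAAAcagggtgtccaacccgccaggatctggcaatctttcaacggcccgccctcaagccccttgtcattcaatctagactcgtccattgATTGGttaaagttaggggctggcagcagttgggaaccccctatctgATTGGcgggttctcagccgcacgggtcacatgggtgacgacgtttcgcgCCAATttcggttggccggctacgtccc
Aurka: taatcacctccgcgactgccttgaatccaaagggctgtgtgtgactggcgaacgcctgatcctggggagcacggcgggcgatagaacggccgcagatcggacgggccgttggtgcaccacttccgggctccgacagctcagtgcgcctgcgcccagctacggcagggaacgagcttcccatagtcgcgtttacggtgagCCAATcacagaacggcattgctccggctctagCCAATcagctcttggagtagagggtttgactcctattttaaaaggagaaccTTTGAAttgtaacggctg

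The starts of Tk1 and Afmid stand 95 bases apart and their windows share 4 bases. No letters of either window matched a searched motif. The starts of Mcm7 and Ap4m1 stand 138 bases apart, so the Mcm7 window contains the Ap4m1 start as well, and the 2 genes' windows share 237 bases. That Mcm7 window, 1 of 2 that RefSeq gives for the gene, held 1 TTTCCCGC and 3 CCAAT matches. The Aurka and Cstf1 starts stand 433 bases apart and the windows share 68 bases. In the Aurka window lay 2 CCAAT boxes, and 1 TTTGAA followed the start site. Over 32851 RefSeq windows of the same length, 1.07% held TTTCCCGC, 0.514% TTTGGCGC, 17.9% TTTGAA and 37.4% CCAAT on either strand. These matches describe letters only. No window was at hand for Ccna2, Exosc9 or Ccnd1.

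The libraries held 219504 to 325177 counts on gene symbols, which is not the number of reads sequenced. Thus 3 counts in a library, the most that a count of 0 allows, stood for 9.43 to 14.6 CPM, counts scaled to library size with TMM factors. Such floors cover counting error only. Ribosomal precursor RNA (Rn45s) took 2.20% to 13.4% of the counts, and it exceeded 8% in CTRL replicate 1 and in MODEL1 replicates 1 and 3. All 10 hepatocyte markers were detected, and together they took 0.258% to 0.343% of the counts in CTRL, 0.125% to 0.245% in MODEL1 and 0.194% to 0.241% in MODEL2. These 10 include Alb, Apoa1 and other genes of plasma proteins made by hepatocytes. Why their share was so small was not tested, and counts under a symbol may not follow its messenger RNA level. The Kupffer cell and macrophage markers summed to 7 to 11 counts in CTRL, 18 to 25 in MODEL1 and 8 to 10 in MODEL2, with Adgre1 at 0 throughout. The endothelial markers summed to 89 to 100, 47 to 76 and 59 to 101 counts. T and NK cell, B cell, stellate and cholangiocyte markers reached at most 6 summed counts in any library. Alas2, an erythroid heme synthesis gene, held 28 to 124 counts in CTRL, 84 to 122 in MODEL1 and 38 to 69 in MODEL2. The hepatocyte share was lower in both models than in CTRL. In MODEL1 alone the macrophage sums lay above CTRL and the endothelial sums below it. The MODEL2 ranges of these 2 cell types overlapped CTRL, as did Alas2 in both models. The part of these differences in the changes below was not tested. In bulk tissue, fewer cells of a type and less RNA per cell cannot be told apart.

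Differences were fitted with edgeR's quasi-likelihood test over the 2639 genes that passed a filter on low counts, and Benjamini-Hochberg adjusted p-values over that whole set were held to a threshold of 0.05; for the members only the fitted change is given. Fold changes are log2 differences between group levels, with their standard error. Of the 9 members 8 passed the filter, and Cstf1 did not. From CTRL to MODEL1, 22.8% of all tested genes passed the threshold (11.9% higher, 11.0% lower), from CTRL to MODEL2 13.3% (8.30% higher, 4.96% lower), and from MODEL1 to MODEL2 7.28% (3.87% higher, 3.41% lower). Among the 8 members these counts were 4, 5 and 2, and nothing is read from them, since the values chose the members. Both comparisons with CTRL use the same 3 CTRL libraries, and MODEL2 against MODEL1 uses the model libraries of both.

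**Figure D2:**
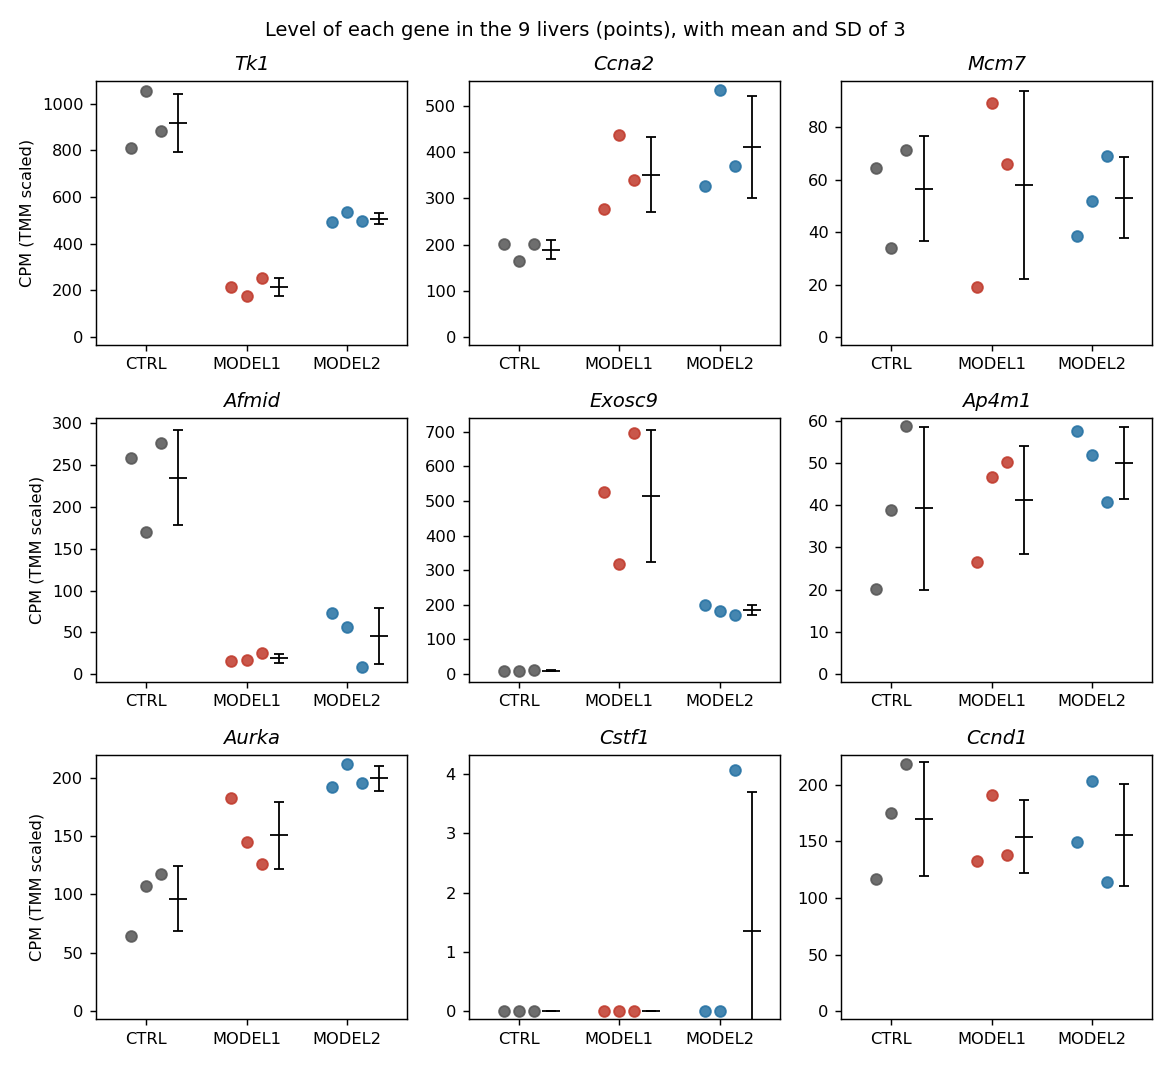
TMM-scaled CPM of each of the 9 genes in every library, with points for single mice and a dash and whiskers for the mean and SD of 3 mice per group; each panel has its own axis, and the single Cstf1 point above 0 is 1 count. Tk1 and Afmid are highest in CTRL, Exosc9 and Ccna2 are highest in the models, and the groups overlap for Mcm7, Ap4m1 and Ccnd1.

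Tk1, the thymidine kinase of S phase, was highest in CTRL and lowest in MODEL1. It held 201, 217 and 211 counts in the CTRL libraries, 56, 41 and 81 in MODEL1 and 128, 124 and 122 in MODEL2. No library of any group crossed into another group's range. In CPM the groups lay at 917 ± 124, 214 ± 40.2 and 508 ± 24.5 (SD, n = 3 each). The fitted level in MODEL1 was 4.25-fold below CTRL (log2 change −2.09 ± 0.22) and that in MODEL2 1.80-fold below (−0.85 ± 0.21). Between the models Tk1 was 2.36-fold higher in MODEL2 (1.24 ± 0.22), in 3 of 3 libraries above every MODEL1 library.

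Afmid, the formamidase whose start overlaps that of Tk1, was lower in both models too. CTRL livers gave 64, 35 and 66 counts, MODEL1 livers 4, 4 and 8, and MODEL2 livers 19, 13 and 2. Every model library lay below every CTRL library, while the ranges of the models overlapped. Mean levels were 235.0 ± 57.1, 19.1 ± 5.31 and 45.7 ± 33.6 CPM (SD, n = 3 each). The edgeR fit put MODEL1 11.8-fold below CTRL (−3.57 ± 0.51) and MODEL2 5.09-fold below (−2.35 ± 0.46). The difference between the models was 1.22 ± 0.58. Of all counts on Tk1 and Afmid together, Tk1 held 79.4% ± 5.83 of the CTRL total, 91.8% ± 1.31 of that of MODEL1 and 92.0% ± 5.80 of that of MODEL2 (SD, n = 3 each). Summed as if they were a single gene, the pair differed from CTRL by −2.30 ± 0.22 (log2) in MODEL1 and −1.06 ± 0.20 in MODEL2, and the models differed by 1.24 ± 0.22.

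Ccna2, cyclin A2, was higher in both models. Its libraries held 50, 34 and 48 counts in CTRL, 73, 103 and 108 in MODEL1, and 85, 124 and 91 in MODEL2. All 6 model libraries stood above the CTRL libraries in CPM, and the models overlapped each other. Group levels were 189 ± 21.1, 351 ± 81.0 and 411 ± 111 CPM (SD, n = 3 each). The fitted changes were 1.85-fold in MODEL1 (0.88 ± 0.27) and 2.16-fold in MODEL2 (1.11 ± 0.27). The models differed by 0.22 ± 0.26 (95% interval −0.28 to 0.73), which spans no change and a 1.5-fold difference alike.

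Exosc9, the RNA exosome subunit that runs tail to tail into Ccna2, had larger fold changes than Ccna2. It was nearly absent from CTRL, with 2, 2 and 3 counts, and held 139, 75 and 222 counts in MODEL1 and 52, 42 and 42 in MODEL2. Ranges of the 3 groups did not overlap. In CPM the levels were 10.1 ± 2.28, 515 ± 190 and 184 ± 14.5 (SD, n = 3 each), and every CTRL library stood at or below the 3-count floor. The edgeR fit gave a 48.7-fold higher level in MODEL1 (5.61 ± 0.43) and a 17.4-fold higher level in MODEL2 (4.12 ± 0.45). MODEL2 was 2.80-fold below MODEL1 (−1.49 ± 0.29). Without the 3 libraries richest in Rn45s, of which 2 are MODEL1 libraries, the log2 change in MODEL1 was 4.76 and that between the models −0.79.

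The share of this pair's counts on Ccna2 was lower in both models than in CTRL, and below that of Exosc9 in MODEL1 replicates 1 and 3. Ccna2 took 96.2%, 94.4% and 94.1% of the pair's counts in CTRL, 34.4%, 57.9% and 32.7% in MODEL1, and 62.0%, 74.7% and 68.4% in MODEL2. No overlap between groups was seen in this share. Summed as a single gene, the pair was higher by 2.11 ± 0.23 (log2) in MODEL1 and 1.57 ± 0.23 in MODEL2, and the models then differed by −0.54 ± 0.21. With the strand setting unstated, the counts of either gene may be reads of the other, in part or in full, and how many was not tested.

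**Figure D3:**
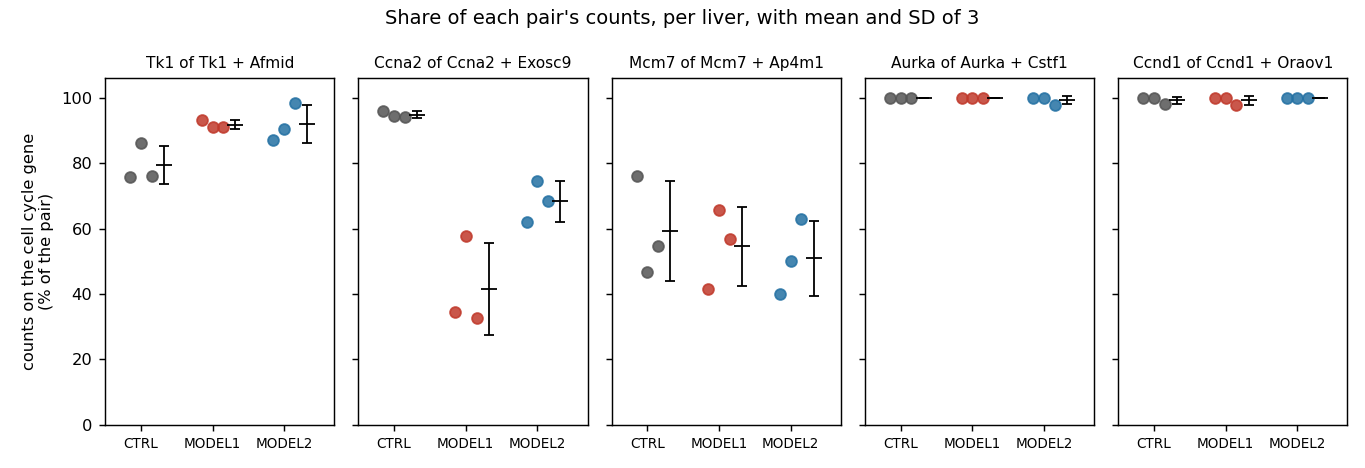
Share of each pair's summed counts that fell on the cell cycle gene, in percent, for every library, with the mean and SD of 3 mice. The Ccna2 share falls from 94.9% ± 1.09 in CTRL to 41.7% ± 14.0 in MODEL1 and 68.4% ± 6.33 in MODEL2, while the Tk1 share stays above 75% in all libraries and the Mcm7 groups overlap.

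Mcm7, the replicative helicase subunit, was low and showed no difference beyond its spread. Its counts were 16, 7 and 17 in CTRL, 5, 21 and 21 in MODEL1, and 10, 12 and 17 in MODEL2, with overlapping ranges. Levels were 56.6 ± 19.9, 58.1 ± 35.8 and 53.1 ± 15.4 CPM (SD, n = 3 each). The fitted change was 0.02 ± 0.52 in MODEL1 (95% interval −1.01 to 1.04) and −0.11 ± 0.53 in MODEL2 (−1.14 to 0.93). Between the models it was −0.12 ± 0.52 (−1.15 to 0.90). Each interval leaves room for about a doubling or its reverse. Settings moved these values by over 1.5 times: with age as a covariate they were −0.57 in MODEL1 and −1.12 in MODEL2, and without the Rn45s-rich libraries 0.74 in MODEL1 and −0.75 between the models.

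Ap4m1, the adaptor subunit that starts beside Mcm7, gave 5, 8 and 14 counts in CTRL, 7, 11 and 16 in MODEL1, and 15, 12 and 10 in MODEL2. These ranges overlapped as well. Its log2 changes were 0.08 ± 0.54 in MODEL1 (95% interval −0.97 to 1.13) and 0.35 ± 0.53 in MODEL2 (−0.69 to 1.39). From MODEL1 to MODEL2 the change was 0.27 ± 0.52 (−0.75 to 1.29). Mcm7 took 59.2% ± 15.2, 54.7% ± 12.1 and 51.0% ± 11.5 of this pair's counts (SD, n = 3 each). Taf6, which faces Ap4m1 over 1185 exon bases, was far more abundant, with 154, 141 and 114 counts in CTRL, 108, 114 and 153 in MODEL1, and 114, 91 and 126 in MODEL2. Its fitted changes in the models, −0.37 ± 0.22 and −0.41 ± 0.22, did not pass (adjusted p = 0.243 and 0.251, edgeR). Cops6 held 0 to 2 counts in any library.

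Aurka, the spindle kinase, stood higher in both models. It held 16, 22 and 28 counts in CTRL, 48, 34 and 40 in MODEL1, and 50, 49 and 48 in MODEL2. In CPM the levels were 96.3 ± 27.9, 151 ± 28.7 and 199.5 ± 10.7 (SD, n = 3 each), and no library of any group crossed into another group's range. The fitted change was 0.65 ± 0.32 in MODEL1 and 1.05 ± 0.32 in MODEL2 (2.07-fold). The difference between the models was 0.41 ± 0.31 (95% interval −0.19 to 1.00).

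Cstf1, whose start faces that of Aurka, had 0 counts in 8 libraries and 1 count in MODEL2 replicate 3. The table thus held 335 Aurka counts beside 1 for Cstf1. A count of 0 allows up to 3 counts in each of those libraries, so no fold change is given.

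Ccnd1, cyclin D1, known as a target of beta-catenin in other tissues, did not differ beyond its spread. Its counts were 29, 36 and 52 in CTRL, 35, 45 and 44 in MODEL1, and 39, 47 and 28 in MODEL2, and the ranges overlapped. Levels were 169.9 ± 50.6, 154 ± 32.2 and 155 ± 44.9 CPM (SD, n = 3 each). The changes were −0.14 ± 0.33 in MODEL1 (95% interval −0.78 to 0.49), −0.13 ± 0.33 in MODEL2 (−0.77 to 0.51), and 0.02 ± 0.33 between the models (−0.62 to 0.66). Oraov1, its neighbour over 1100 exon bases, held 0 or 1 count in each library.

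**Figure D4:**
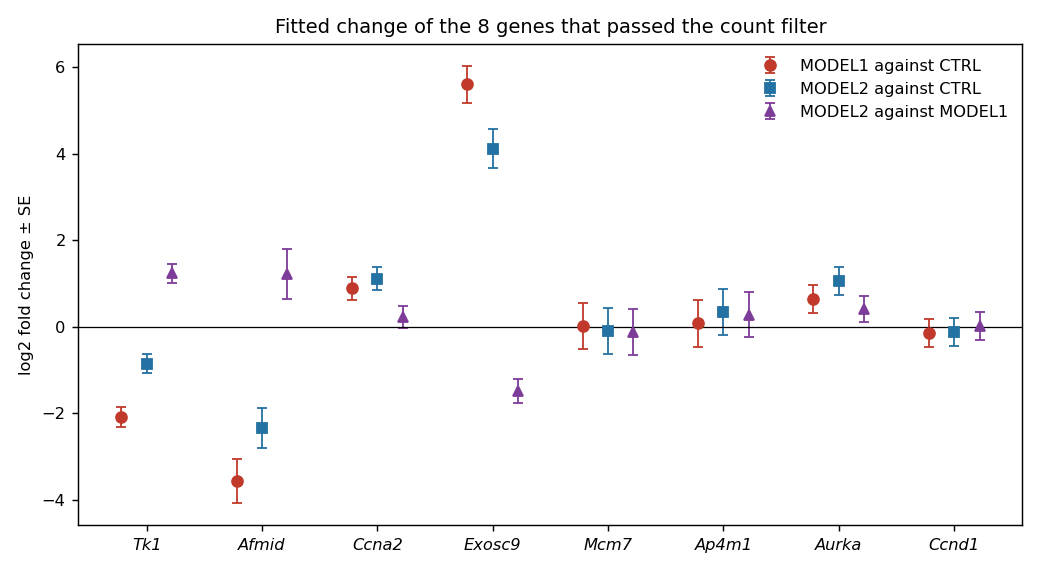
Fitted log2 fold changes of the 8 tested members in the 3 comparisons, with bars of 1 standard error. Exosc9 (5.61 and 4.12) and Afmid (−3.57 and −2.35) lie farthest from 0 in MODEL1 and MODEL2 against CTRL, while the bars of Mcm7, Ap4m1 and Ccnd1 cross 0 in every comparison.

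Levels can be set beside each other between genes only per length. Per kilobase of annotated exon, summed over all transcripts of a gene, CTRL livers gave Tk1 176 ± 23.9 CPM, Afmid 66.4 ± 16.1, Ccna2 46.4 ± 5.16, Aurka 38.0 ± 11.0, Ccnd1 36.1 ± 10.7, Mcm7 12.8 ± 4.49, Ap4m1 7.32 ± 3.59 and Exosc9 2.15 ± 0.484 (SD, n = 3 each). From Afmid to Ccnd1, and from Mcm7 to Ap4m1, neighbours in this order lay within their spread. In MODEL1 the order began with Exosc9 at 109 ± 40.3 CPM per kilobase, then Ccna2 at 86.1 ± 19.8, Aurka at 59.6 ± 11.4 and Tk1 at 41.1 ± 7.73. Each neighbour in that order lay within its spread of the one before. Afmid, at 5.40 ± 1.50, was the lowest there apart from Cstf1, within its spread of Ap4m1 at 7.68 ± 2.39. In MODEL2, Ccna2 at 101 ± 27.1 and Tk1 at 97.6 ± 4.72 lay within their spread, followed by Aurka at 78.8 ± 4.21 and Exosc9 at 39.1 ± 3.08. Aurka there lay within the spread of Ccna2 but not of Tk1.

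The same pairs can be read against other genes of the pathways involved. Of 84 further cell cycle genes listed (35 of DNA replication, 30 of mitosis and 19 of the G1/S step), 62 had under 10 counts over all 9 libraries together and 19 had none; only 9 passed the filter. The mitotic kinase Cdk1 and its partner Ccnb1 had 0 counts in every library, and Top2a, the mitotic topoisomerase, had 2 in all; these were named after their values were seen. The 27 listed genes with an exon facing an exon on the other strand had a median of 13 counts in total, against 2 for the 57 without, and held 4247 of the list's 4682 counts. E2f8 alone held 2150 of these counts. Of the 9 that passed the filter, 7 had such an exon. Among all placed symbols 24.2% had one, and they held 79.0% of the placed counts. The share among all tested genes was not computed, so nothing is read from the 7. In MODEL1 against CTRL, 1 of the 9 passed the threshold as higher and 2 as lower, where 11.9% and 11.0% of all tested genes did. The median log2 change was 0.10, against 0.000254 over all tested genes. In MODEL2, 0 were higher and 1 lower, beside 8.30% and 4.96% of all (median −0.37, against 0.00107). From MODEL1 to MODEL2, 1 was higher and 1 lower, beside 3.87% and 3.41% (median −0.19, against 0.00761). With 9 genes, nothing is read from these counts.

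**Figure D5:**
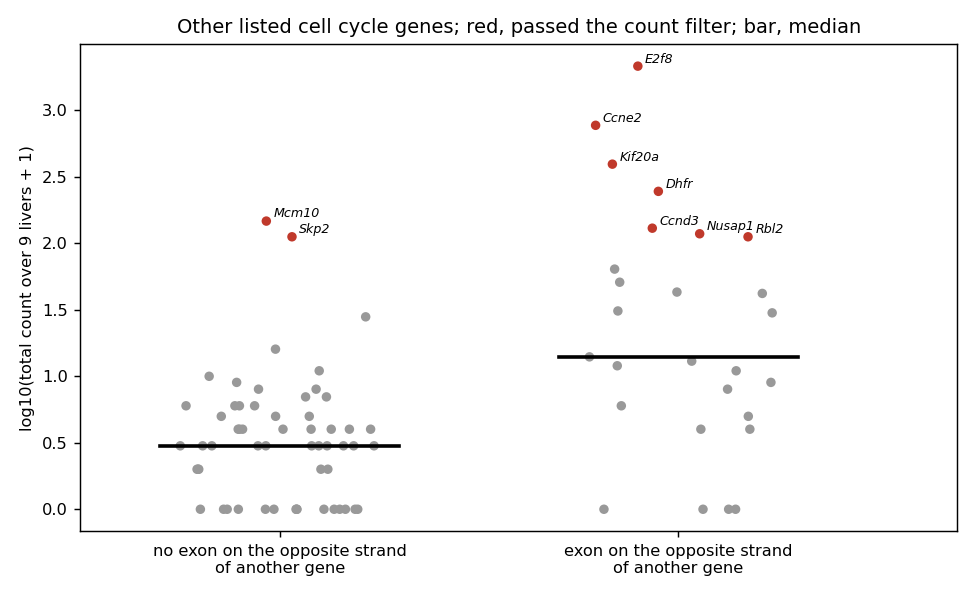
Total count over the 9 libraries of each of the 84 further cell cycle genes, as log10(total + 1), for the 57 genes without an exon facing another gene and the 27 with such an exon. Red points passed the filter on low counts, grey points did not, and bars are medians, at 2 and 13 counts; sideways position within a column only separates the points. Of the red points 7 are in the column with a facing exon, with E2f8 at the top, and Mcm10 and Skp2 are in the other.

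E2f8, an E2F family repressor that curbs S phase genes and takes part in hepatocyte polyploidy, had the groups in the same order as Tk1. It held 432, 736 and 278 counts in CTRL, 39, 51 and 60 in MODEL1, and 197, 120 and 237 in MODEL2, with no overlap. By edgeR its change was −3.55 ± 0.34 in MODEL1 (adjusted p = 5.3e-08) and −1.53 ± 0.30 in MODEL2 (adjusted p = 0.00132). MODEL2 was 4.05-fold above MODEL1 (2.02 ± 0.33; adjusted p = 0.000516). Its MODEL2 call ended with age as a covariate (−0.55; adjusted p = 0.809) and the call between the models without the libraries rich in Rn45s (1.78; adjusted p = 0.0774). E2f8 too has an exon facing another gene, Gm2788, over 610 bases.

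Nusap1, a spindle microtubule protein, was high in MODEL1 alone. Its counts were 5, 8 and 5 in CTRL, 28, 19 and 37 in MODEL1, and 5, 1 and 9 in MODEL2. Libraries of MODEL1 stood above all others. The edgeR change was 1.93 ± 0.55 in MODEL1 (adjusted p = 0.0121) and −2.30 ± 0.56 from MODEL1 to MODEL2 (adjusted p = 0.0146), whereas in MODEL2 it was −0.37 ± 0.64 against CTRL (adjusted p = 0.769). Without the Rn45s-rich libraries these calls ended (adjusted p = 0.385 and 0.233), as they did with age as a covariate (0.312 and 0.0814). Without MODEL1 replicate 3 both ended also (1.81 in MODEL1, adjusted p = 0.0580; −2.18 between the models), and the call between the models ended without MODEL2 replicate 1 (−2.26) or MODEL2 replicate 2 (−1.87). Its neighbour Oip5, over 172 shared exon bases, had 1 to 3 counts in CTRL, 6 to 13 in MODEL1 and 5 to 9 in MODEL2.

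Mcm10, a replication initiation factor with no facing exon, went the other way from Nusap1 in MODEL1. It held 45, 14 and 18 counts in CTRL, 3, 5 and 12 in MODEL1, and 26, 4 and 19 in MODEL2. Its change of −2.16 ± 0.59 in MODEL1 passed (adjusted p = 0.00973, edgeR). The call ended without CTRL replicate 1, the highest library (−1.56; adjusted p = 0.1095), with age as a covariate (−1.62; adjusted p = 0.279) and without the Rn45s-rich libraries (−1.73; adjusted p = 0.298).

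Among 8 listed CDK inhibitors none passed the filter; Cdkn2b, chosen after its values were seen, held 2, 4 and 3 counts in CTRL, 5, 4 and 8 in MODEL1, and 2, 4 and 2 in MODEL2. Of the listed companions of the 4 neighbours 6 were tested, and 1 passed in MODEL1, where 22.8% of all tested genes did; those below that did not pass were named after their values were seen. Of 11 kynurenine pathway genes, which share the tryptophan route with Afmid, 2 were tested. Acmsd, a decarboxylase of that route, was lower in MODEL1 (−0.82 ± 0.28; adjusted p = 0.0374, edgeR), a call that 11 of 18 alternative settings ended, and Tdo2 did not pass. Of 11 other RNA exosome genes 2 were tested, Exosc8 and the helicase Skiv2l2, and 0 passed, also in MODEL1 where Exosc9 was 48.7-fold higher. Exosc8 held 8, 3 and 18 counts in CTRL, 5, 6 and 11 in MODEL1, and 24, 11 and 25 in MODEL2. AP-4 genes (1 of 4 tested) and CstF genes (1 of 3 tested) gave 0 calls.

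The genes whose profile over the 9 libraries came nearest to each cell cycle member were ranked by the root mean square difference of centred log2 CPM, over 2638 other genes. Nearest to Tk1 were A230050P20Rik (0.212) and AW495222 (0.282), and Afmid came at rank 1134 (0.930). Nearest to Ccna2 were Frs3os (0.203) and Fbxo8 (0.262), and Exosc9 came at rank 2589 (1.68), among the most distant. This measure also grows with the size of a change, and Ccna2 and Exosc9 were both higher in both models. Nearest to Mcm7 were Erp29 (0.249) and Hp (0.278), with Ap4m1 at rank 367 (0.569). Tcp1 (0.153) and Carm1 (0.177) came nearest to Aurka, and E130310I04Rik (0.195) and Slc16a6 (0.219) to Ccnd1. None of these 10 nearest genes was on the cell cycle lists. Only 9 of the 84 listed genes were among the 2638 ranked, so nothing is read from this. All of the 10 nearest genes but Fbxo8 and Hp have an exon facing another gene. That share was not computed over all tested genes. These distances describe 9 libraries that differ by group, so groups alone can bring profiles together.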

How the data were processed

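Whole-liver total RNA (Trizol extraction and standard Illumina libraries, per the labels' protocols) was sequenced from 9 mice. The authors deposited raw counts per gene symbol without normalization; Trimmomatic 0.38, HISAT2 2.1.0, HTSeq 0.11.2 and mm10 are named per the submitters' processing notes. The roles of these tools, the annotation and the strand setting are not given in the sources used here. Groups came from the labels. Each replicate is a labelled mouse, and p-values measure the spread between these libraries.

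The analysis used edgeR 4.0.16 under R 4.3.3: filterByExpr (minimum count 10), TMM scaling, 1 coefficient per group over all 9 libraries, two-sided quasi-likelihood F tests, and Benjamini-Hochberg adjustment over 2639 genes (threshold 0.05). The standard error is the log2 change divided by the square root of F; 95% intervals use 1.96 standard errors. The code was tested on simulated data. Exon overlap used GENCODE M21; promoter windows came from RefSeq (GRCm38.p6). Low genes were compared by exact conditional binomial intervals.

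Named were all 9 members, their facing genes, listed genes past the threshold in any comparison, and the 2 nearest profiles per cell cycle member; others are marked as chosen after their values were seen. Members and lists were chosen with earlier results of these data known. Alternatives were RLE scaling, DESeq2 1.42.0, other filters, a replicate block, age as a covariate, 2-group fits, exclusion of the Rn45s row, of Rn45s-rich libraries (above 8%) or of each replicate, and summed pairs.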

Additional observations from a re-analysis of the deposited data

How the results depend on the processing

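Fold changes of Tk1 in all comparisons, Afmid and Exosc9 in all comparisons, and Ccna2 and Aurka in both models kept their direction under the 19 alternatives, of which 1 sums each pair. Their sizes were less steady. With age as a covariate the MODEL2 changes were −0.76 ± 0.44 for Tk1, −2.01 ± 0.82 for Afmid, 0.97 ± 0.59 for Ccna2 and 4.21 ± 0.94 for Exosc9. Aurka in MODEL2 ran from 0.61 to 1.23 over the alternatives. Ccna2 in MODEL1 ran from 0.71 to 1.25 by itself, and was 2.11 when summed with Exosc9. The genes passing the threshold in MODEL1 against CTRL, MODEL2 against CTRL and MODEL2 against MODEL1 numbered 602, 350 and 192. They numbered 299, 71 and 101 with age as a covariate, and 274, 207 and 70 without the libraries rich in Rn45s. Leaving out each replicate gave 478 to 596, 221 to 379 and 79 to 224; the MODEL2 count fell to 223 without CTRL replicate 1 and 221 without MODEL2 replicate 2. Same-numbered libraries did not deviate together (correlations −0.121 to 0.0103). No pairing of the mice by number was thus seen, though so few libraries cannot exclude one. A replicate block gave 543, 290 and 125, and under it Acmsd in MODEL1 (−0.80) was not called. The other settings stayed within 1.5 times.

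Signs turned in changes that had not passed the threshold, and the cause was not tested. Ccna2 between the models was −0.094 without the Rn45s-rich libraries and −0.54 with pairs summed. Mcm7 in MODEL1 was −0.021 with no filter, −0.084 with the block and −0.57 with age; with pairs summed it was 0.10 in MODEL2 and 0.057 between the models. Ap4m1 was −0.32 (MODEL1) and −0.31 (MODEL2) with age, and −0.069 (MODEL1) without the Rn45s-rich libraries. Ccnd1 between the models was −0.030 with RLE, −0.030 with DESeq2, −0.12 with age, −0.0058 without the Rn45s row and −0.30 without the Rn45s-rich libraries. Mcm10 in MODEL2 was 0.13 with age. Without each replicate in turn, changes ran from −0.026 to 0.38 for Ccna2 between the models; from −0.39 to 0.43, −0.35 to 0.086 and −0.54 to 0.26 for Mcm7 in MODEL1, MODEL2 and between them; from −0.24 to 0.50 for Ap4m1 in MODEL1; from −0.36 to 0.081, −0.38 to 0.10 and −0.23 to 0.20 for Ccnd1 in the same order; and from −1.09 to 0.062 for Nusap1 in MODEL2. Low counts limit Mcm7, Ap4m1 and Cstf1, at 0 to 21 counts a library.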

Other observations

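A pair of further dividing-cell genes, chosen after their values were seen, were too low for the fit. Mki67, the proliferation antigen, has no facing exon and held 0, 0 and 1 counts in CTRL, 5, 7 and 10 in MODEL1, and 0, 2 and 2 in MODEL2. Scaled to library size, its summed count was 20.4-fold that of CTRL in MODEL1 (exact 95% counting interval 3.31 to 844, from 22 counts and 1) and 0.198-fold that of MODEL1 in MODEL2 (0.0497 to 0.584). Prc1, a midzone protein of dividing cells whose exon faces Rccd1, held 1, 0 and 0 counts in CTRL, 14, 8 and 4 in MODEL1, and 0, 2 and 0 in MODEL2. Its ratio of MODEL1 to CTRL was 24.2 (3.97 to 991), and of MODEL2 to MODEL1 0.0839 (0.00965 to 0.335). Leaving out 1 library moved the Mki67 ratio of MODEL1 to CTRL to 12.7 (without CTRL replicate 1) and that of MODEL2 to MODEL1 to 0.315 (without MODEL2 replicate 1). It moved the Prc1 ratio of MODEL2 to MODEL1 to 0.133 without MODEL2 replicate 1 and to 0 without MODEL2 replicate 2, the library with the 2 counts. These intervals cover counting error in the summed libraries and not the spread between mice.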
